A study of Mus musculus with 6 samples.

Results

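The genes described here encode the invariant chains and constant regions of the αβ T cell receptor (TCR). They are the 4 CD3 chain genes Cd3d, Cd3e, Cd3g and Cd247 and the 3 TCR constant region genes Trac, Trbc1 and Trbc2, taken by symbol as 7 of the 48397 rows of the count table. The RNA-Seq libraries were made from thymic invariant natural killer T (iNKT) cells at stage 0, the first stage of their development that follows selection on CD1d, and the genotypes BALB/c and SKG were compared. The 3 BALB/c libraries came from wild-type mice and the 3 SKG libraries from mice of the same BALB/c background that carry a hypomorphic mutation of Zap70. All mice were 8 to 10 weeks old, and no treatment or transgene is given for either group. Each library was made from about 1000 cells sorted from the pooled thymi of 3 mice as PBS57-CD1d tetramer+, CD44-, CD24+, CD69+, CD4lo/- and CD8- cells, and each pool is 1 replicate.

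On the cell surface, the TCRα and TCRβ chains bind antigen, which for iNKT cells is a glycolipid presented by CD1d, but have cytoplasmic tails too short to signal. Signaling is carried by the associated CD3γε and CD3δε dimers and the ζ homodimer, the product of Cd247, whose immunoreceptor tyrosine-based activation motifs (ITAMs) are phosphorylated by Lck and then bound by the tandem SH2 domains of Zap70. The SKG mutation lies in one of these SH2 domains. In developing thymocytes, the ζ chain is known to limit the number of complete receptors that reach the surface.

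Between 37176544 and 43115544 reads per library were counted on genes, and 10835 to 14791 genes had 10 reads or more. BALB/c replicate 1, with 11415 such genes, and SKG replicate 3, with 10835, had the fewest. Expression is given as CPM, the reads of a gene scaled to a library's TMM-normalized total. Of the genes of the sort, Cd69 measured 312, 391 and 354 CPM in BALB/c replicates 1 to 3 and 152, 179 and 250 CPM in SKG replicates 1 to 3, without overlap. Cd44 lay between 0.103 and 14.5 CPM over all libraries and Cd24a between 7.31 and 90.7 CPM. Cd24a, Cd69, Egr2 and the negative marker Cd44 summed to 1510 to 1918 CPM in BALB/c and 839 to 1223 CPM in SKG. Egr2 made up most of this sum, at 1546.5, 1097 and 1408 CPM in BALB/c and 883, 956 and 493 CPM in SKG. Cd24a went the other way, with means of 25.1 CPM in BALB/c and 70.4 CPM in SKG and overlapping libraries. The part of these differences in the comparisons below was not tested. Among markers of other cells, the sum of 5 NK cell markers was 0 to 5.27 CPM, with Ncr1 and Eomes at 0 reads in all libraries. Of 5 thymic epithelial markers, Krt5 and Psmb11 were at 0 in all libraries, while Epcam lay at 10.0 to 86.9 CPM. The sum of 6 myeloid markers was 75.1 to 266 CPM, mostly Cst3 and Lyz2, and that of 6 B cell markers 4.59 to 94.9 CPM, mostly Ighm. BALB/c replicate 1 had the highest sum of 7 double-positive thymocyte markers, 423 CPM against 43.0 to 172 CPM elsewhere. Markers of γδ T cells are given further on.

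None of the 7 genes passed the test for a difference between the genotypes. In the quasi-likelihood fit of edgeR, with a call needing both an FDR below 0.1 and a 1.5-fold change, 0 of 7 genes were called, as were 0% of the 12312 genes tested. Also, 0 of 7 had an unadjusted p under 0.05, against 5.45% of all genes, and 0 of 7 had genotypes whose libraries did not overlap, against 13.9% of all genes. DESeq2 called 0 of 7, where it called 2.58% of all its genes without and 1.67% with shrinkage, and limma-voom called 0 of 7, as of all genes. The fitted fold change of SKG over BALB/c was below 0 on the log2 scale for 4 genes and above 0 for 3, with a median of -0.022, beside a median of -0.016 over all genes. Together the 7 genes took 0.544% to 0.746% of the reads of a library. In bulk RNA, fewer cells of a type and less RNA per cell cannot be told apart.

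The genes Cd3g, Cd3d and Cd3e lie in one cluster of 40056 bases on mouse chromosome 9. In the GRCm38 annotation, Cd3g (chr9:44969572-44980431, minus strand) and Cd3d (chr9:44981786-44987339, plus strand) are transcribed away from each other from starts 1354 bases apart, and Cd3e occupies chr9:44998740-45009627 on the minus strand. Cd247 lies alone on chromosome 1 (chr1:165788681-165877277, plus strand).

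Cd3e encodes CD3ε, the chain that pairs with both CD3γ and CD3δ. It measured 1096, 891 and 798 CPM in BALB/c replicates 1 to 3 and 929, 969 and 1064 CPM in SKG replicates 1 to 3. The SKG libraries lay within the range of the BALB/c libraries. The log2 fold change of Cd3e was 0.089 (SE 0.15, 95% interval -0.28 to 0.46, edgeR adjusted p = 0.991).

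Cd3g, which encodes CD3γ, measured 1102, 966 and 1069 CPM in BALB/c and 845, 906 and 983 CPM in SKG. The ranges overlapped only through BALB/c replicate 2 and SKG replicate 3. Its log2 fold change was -0.20 (SE 0.12, interval -0.49 to 0.093, edgeR adjusted p = 0.976). Cd3g varied least of the 7 between libraries of a genotype, with an SD of 0.10 on the log2 scale, and only 0.837% of the genes tested varied less.

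Cd3d, which encodes CD3δ, measured 739, 470 and 586 CPM in BALB/c and 435, 426 and 632 CPM in SKG. SKG replicate 3 lay above the BALB/c replicates 2 and 3. The log2 fold change of Cd3d was -0.27 (SE 0.23, interval -0.83 to 0.30, edgeR adjusted p = 0.991). It was -0.46 without SKG replicate 3 and -0.080 without BALB/c replicate 1.

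Cd247 measured 216, 150 and 118 CPM in BALB/c and 179, 247 and 239 CPM in SKG. The genotypes overlapped because BALB/c replicate 1 lay above SKG replicate 1. Cd247 had the largest fitted difference of the 7, a log2 fold change of 0.46 (SE 0.27, interval -0.18 to 1.09, edgeR adjusted p = 0.972), and its interval reached beyond a fold change of 1.5. Without BALB/c replicate 1 the log2 fold change was 0.74 and without BALB/c replicate 3 it was 0.28. It also varied most within a genotype (SD 0.36 on the log2 scale). Of its 5329 annotated exon bases, 3213 (60.3%) overlap exons of Pou2f1 on the opposite strand or of Gm16565, and the counting ignored strand, so reads there cannot be told apart by gene. Pou2f1 itself lay at 11.8 ± 7.92 CPM (SD, n = 3) in BALB/c and 9.24 ± 3.97 CPM (n = 3) in SKG, with overlapping libraries.

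**Figure D1:**
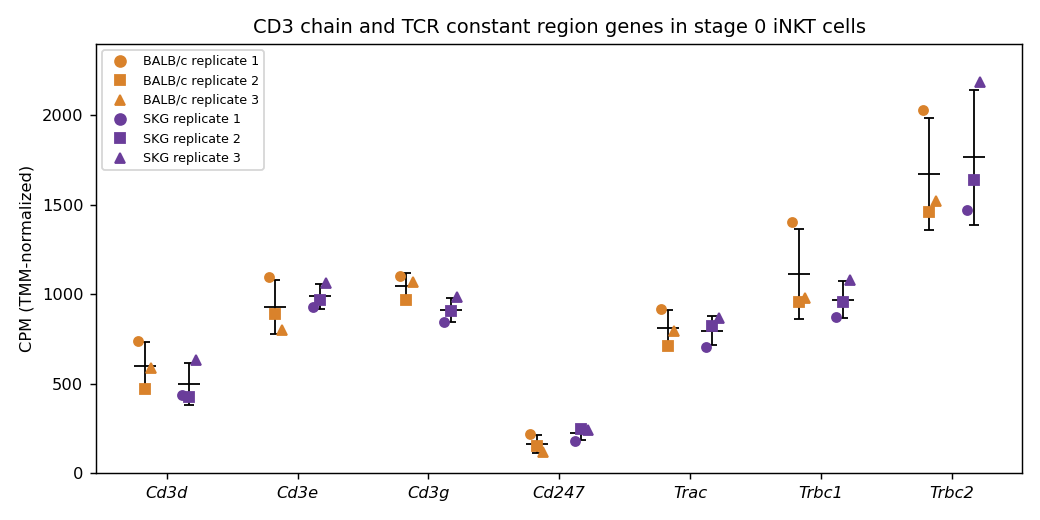
TMM-normalized CPM of the 7 genes in each of the 6 libraries, with bars at the mean ± SD of 3 libraries per genotype. The genotypes overlap for every gene, and BALB/c replicate 1 is the highest BALB/c library for all 7.

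**Figure D2:**
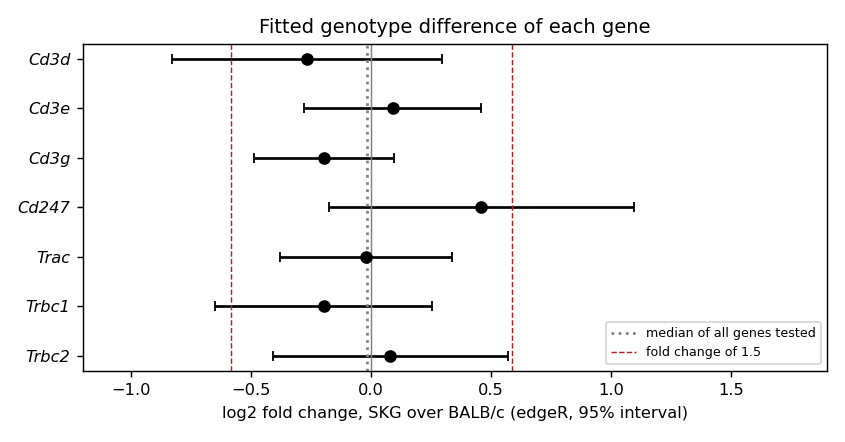
Log2 fold change of SKG over BALB/c from edgeR with its 95% interval for each gene. All intervals include 0, and those of Cd3d, Trbc1 and Cd247 also reach beyond a fold change of 1.5, drawn as dashed lines.

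Promoter sequences in RefSeq were matched for 4 of the 7 genes, Cd247, Cd3g, Cd3d and Cd3e. The 3 that hold an Ets motif are shown, and that of Cd3g, which lacks it, is not. Ets1, a transcription factor that binds TCR and CD3 gene enhancers, was among the listed genes with an unadjusted p under 0.05 described further on. So were Tcf7, Tcf3 and Runx3, each with a lower edgeR p than Ets1, and motifs of their families are counted below. The choice of the Ets motif is thus not evidence for Ets1. The 250 bases upstream of the annotated RefSeq start follow (GRCm38.p6), for Cd247 on the plus strand at chr1:165788431-165788680, for Cd3d on the plus strand at chr9:44981536-44981785 and for Cd3e on the minus strand at chr9:45009612-45009861. Capitals mark the Ets motif AGGAAGT on either strand.
Cd247: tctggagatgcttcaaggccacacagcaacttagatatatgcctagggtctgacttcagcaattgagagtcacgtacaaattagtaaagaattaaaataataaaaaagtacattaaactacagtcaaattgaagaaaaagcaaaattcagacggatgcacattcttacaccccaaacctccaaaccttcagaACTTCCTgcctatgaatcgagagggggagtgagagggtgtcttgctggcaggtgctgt
Cd3d: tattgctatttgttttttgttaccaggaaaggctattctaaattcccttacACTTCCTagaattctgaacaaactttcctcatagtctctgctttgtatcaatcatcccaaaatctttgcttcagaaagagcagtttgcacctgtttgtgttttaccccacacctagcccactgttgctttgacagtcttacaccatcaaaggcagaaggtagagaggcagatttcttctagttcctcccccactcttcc
Cd3e: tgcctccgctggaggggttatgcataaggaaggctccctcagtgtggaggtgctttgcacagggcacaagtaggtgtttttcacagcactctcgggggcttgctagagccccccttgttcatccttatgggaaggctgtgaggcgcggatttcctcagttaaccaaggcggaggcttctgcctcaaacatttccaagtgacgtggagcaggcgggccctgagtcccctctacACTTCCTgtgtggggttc
In the window of 300 bases around the start, the Ets motif was found in Cd247, Cd3d and Cd3e but not in Cd3g, and in 9.35% of 32851 RefSeq promoters. The E-box CANNTG was found in all 4 and in 72.3% of promoters. The TCF motif CTTTGA was found in Cd247 and Cd3d (16.0% of promoters) and the GATA motif AGATAA in Cd3g (11.2%), while TGTGGT of Runx factors (16.8%) and TATAAA (13.6%) were found in none of the 4. Both strands were searched, matches to different motifs shared no bases in these 4 promoters, and a match of letters does not show a bound site.

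The constant regions lie in the TCRα and TCRβ loci. Trac (chr14:54220521-54224206, GRCm38, plus strand) encodes the α chain constant region. It measured 917, 712 and 797 CPM in BALB/c and 704, 820 and 866 CPM in SKG, and the genotypes overlapped over most of their ranges. Trac had the log2 fold change closest to 0, at -0.022 (SE 0.15, interval -0.38 to 0.34, edgeR adjusted p = 0.999).

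Trbc1 (chr6:41538218-41539881) and Trbc2 (chr6:41546730-41548352) encode alternative β chain constant regions and lie 6848 bases apart on the plus strand of chromosome 6, each downstream of its own cluster of joining segments. Trbc1 measured 1404, 956 and 976 CPM in BALB/c and 874, 956 and 1078 CPM in SKG. Trbc2 measured 2033, 1461 and 1520 CPM in BALB/c and 1470, 1638 and 2188 CPM in SKG. For both genes the highest library of each genotype was the same, BALB/c replicate 1 and SKG replicate 3, and the genotypes overlapped. The log2 fold change was -0.20 (SE 0.19, interval -0.65 to 0.25, edgeR adjusted p = 0.991) for Trbc1 and 0.079 (SE 0.20, interval -0.41 to 0.57, edgeR adjusted p = 0.991) for Trbc2.

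Because Trbc1 and Trbc2 are near-identical copies, how their reads divide depends on where they differ. The exons numbered 1 differ at 1 of 375 bases and those numbered 3 at 15 of 107, so that exons 1 to 3 are 96.2% identical. The exons numbered 3 are shown because most of the 19 differences within exons 1 to 3 lie there. Both are given on the plus strand of GRCm38, from chr6:41539229-41539335 for Trbc1 and chr6:41547772-41547878 for Trbc2, with the differing bases in capitals.
Trbc1: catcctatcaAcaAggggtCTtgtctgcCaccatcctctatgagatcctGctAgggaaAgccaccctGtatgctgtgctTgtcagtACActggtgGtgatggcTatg
Trbc2: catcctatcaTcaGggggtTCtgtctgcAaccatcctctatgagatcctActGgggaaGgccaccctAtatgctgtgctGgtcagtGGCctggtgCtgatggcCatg
Of all stretches of 50 bases in their transcripts, 283 are common to both, 40.5% of those of Trbc1 and 44.0% of those of Trbc2. A read lying in such a stretch matches both genes equally, so the levels of both genes are uncertain. Counting required a minimum mapping quality, and whether such reads passed it is not stated. If they were dropped, the levels of both genes and any sum of them would be too low, and ratios to them too high. The size of this was not tested. Below, the levels of both genes are summed only together with Trac, and their joint reads enter only shares and ratios.

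Sums of the genes and ratios between them, in which normalization drops out, were compared next. These 8 measures went into exact permutation tests, two-sided, for which 0.1 is the smallest p that 3 libraries per genotype allow. The sum of the 4 CD3 chain genes was 2734 ± 367 CPM (SD, n = 3) in BALB/c and 2618 ± 273 CPM (n = 3) in SKG, which differed by less than the spread between libraries (exact permutation p = 0.6, adjusted p = 0.96). The sum of the 3 constant region genes was 3592 ± 665 CPM (n = 3) and 3531 ± 551 CPM (n = 3), again a difference within the spread (exact permutation p = 0.9, adjusted p = 1). Both differences turned positive without BALB/c replicate 1, to 94.3 CPM for the CD3 chains and 320 CPM for the constant regions, and the latter also without SKG replicate 1, to 181 CPM.

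The share of Trbc1 among reads on Trbc1 and Trbc2 was 40.8%, 39.6% and 39.1% in BALB/c and 37.3%, 36.8% and 33.0% in SKG. The genotypes did not overlap, and the 95% intervals of each library (exact Clopper-Pearson), which cover counting error only, reached down to 38.8% in BALB/c and up to 37.6% in SKG. The means were 39.8% ± 0.899 (SD, n = 3) and 35.7% ± 2.36 (n = 3), with the smallest exact permutation p the design allows (p = 0.1, adjusted p = 0.4). A companion measure, added after the data were seen, was the share of the Trbj1 cluster among reads on Trbj joining segments, which by locus structure are spliced mainly to Trbc1 and Trbc2, respectively. It was 59.2%, 55.3% and 52.3% in BALB/c and 50.5%, 47.8% and 47.0% in SKG, based on 1993 to 3236 reads per library. These genotypes did not overlap either, with means of 55.6% ± 3.48 (n = 3) and 48.4% ± 1.84 (n = 3; exact permutation p = 0.1). Both shares come from the same 6 pools of mice and are not independent of each other.

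Relative to the other CD3 chains, Cd247 was also separated by genotype. The log2 ratio of Cd247 to the sum of Cd3d, Cd3e and Cd3g was -3.76, -3.96 and -4.38 in BALB/c and -3.62, -3.22 and -3.49 in SKG, with no overlap, although BALB/c replicate 1 and SKG replicate 1 lay close together. The means were -4.03 ± 0.31 (SD, n = 3) and -3.44 ± 0.20 (n = 3), a difference of 0.59 with an exact permutation p of 0.1 (adjusted p = 0.4). As a share of all reads on the CD3 chains, Cd247 took 4.59% to 6.86% in BALB/c and 7.50% to 9.68% in SKG. Cd3e took 31.0% to 36.0% in BALB/c and 36.5% to 38.9% in SKG. The shares of Cd3d and Cd3g overlapped between the genotypes. Whether reads on exon bases that Cd247 shares with its overlapping neighbours were counted or dropped is not stated. Their part in this ratio was not tested.

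**Figure D3:**
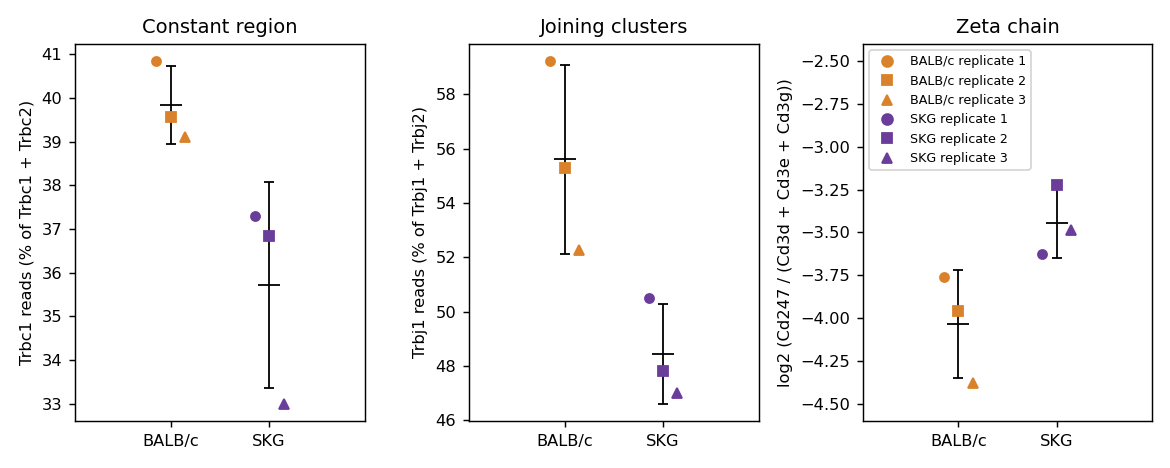
Percent of Trbc1 among Trbc reads, percent of Trbj1 among Trbj reads, and log2 ratio of Cd247 to the other CD3 chain genes in each library, with bars at the mean ± SD of 3 libraries. The axes do not start at 0. The genotypes do not overlap in any of the 3 panels, with an exact permutation p of 0.1, the smallest possible, in each.

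The remaining ratios differed by less than the spread between libraries. The log2 ratio of Trac to both Trbc genes was -1.77 ± 0.13 (SD, n = 3) in BALB/c and -1.77 ± 0.13 (n = 3) in SKG (exact permutation p = 1). The log2 ratio of CD3 chain genes to constant region genes was -0.39 ± 0.069 (n = 3) and -0.43 ± 0.075 (n = 3; exact permutation p = 0.6). Reads on 188 variable and joining segments of the α locus amounted to 16.7 to 23.0 per 100 reads on Trac, and reads on 51 segments of the β locus to 15.8 to 18.9 per 100 reads on Trbc1 and Trbc2. Neither ratio differed between the genotypes beyond the spread (exact permutation p = 0.9 for α and p = 0.4 for β).

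Levels were compared between genes only per length, as CPM per kb of annotated exon bases. The order was Trbc2 (2483 CPM per kb), Trbc1 (1389), Trac (858), Cd3g (299), Cd3d (302), Cd3e (235) and Cd247 (35.9), by the mean of log2 values over the 6 libraries. Of the 6 pairs of neighbours in this order, 4 had the same order in all 6 libraries, each with the smallest p an exact sign-flip permutation test can give (p = 0.03125, adjusted p = 0.0469). Neighbours were set by the order in these same libraries and by the length used. The p-values therefore describe only how steady each ratio was, and do not support the order itself. Cd3g and Cd3d did not differ beyond their spread (p = 0.906, exact). Cd3d lay above Cd3e in 5 of 6 libraries, with a mean log2 ratio of 0.34 and an SD of 0.29 (p = 0.0625, exact). Cd247 stood lowest, 6.72-fold below Cd3e per kb, and 2.76-fold below it when only exon bases outside other genes were counted as length.

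The order depended on the length used. With the longest coding transcript in place of all exons, Cd3g (957 CPM per kb) lay above Trac (858) and Cd3e (655) above Cd3d (339), and all 6 pairs kept one order in all libraries. For Trac and Cd3g, the exact sign-flip test thus gave p = 0.03125 for opposite orders under these lengths. Trbc2 and Trbc1 were the highest and Cd247 the lowest of the 7 under all 4 lengths.

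**Figure D4:**
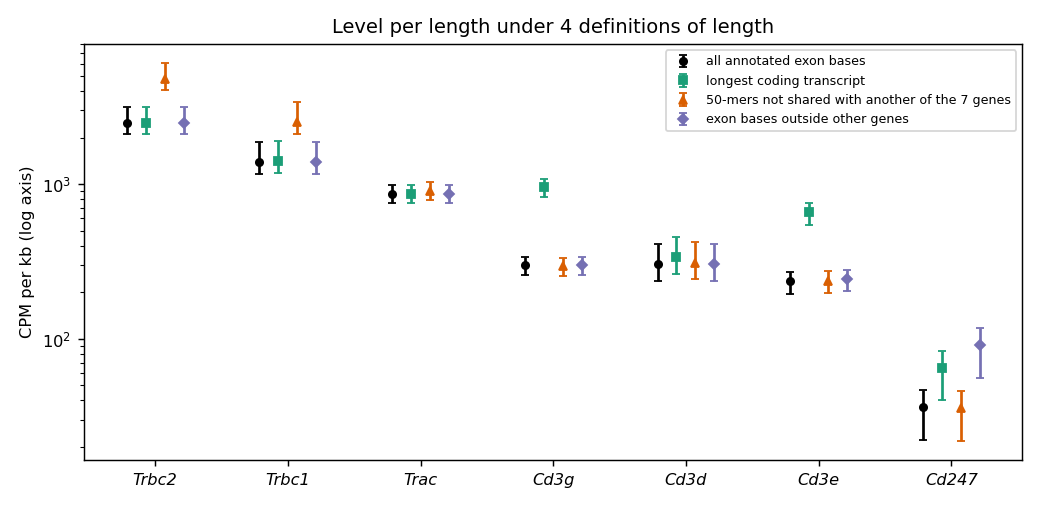
Mean level over 6 libraries as CPM per kb on a log axis under 4 definitions of gene length, with bars from the lowest to the highest library. Trbc2 and Trbc1 are highest and Cd247 lowest under each definition, while Cd3g and Cd3e move with the length used.

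Across the 6 libraries, most of the 7 genes shared a pattern that did not follow genotype. The share of all genes with this pattern was not counted. BALB/c replicate 1 was the highest BALB/c library for 7 of 7 genes. SKG replicate 3 was the highest SKG library for 6, while Cd247 was highest in SKG replicate 2. SKG replicate 1 was the lowest SKG library for 6. The highest libraries were also those with the fewest genes of at least 10 reads. BALB/c replicate 1 and SKG replicate 3 also had the highest sums of myeloid markers, 228 and 266 CPM against 75.1 to 100.3 CPM elsewhere, and of B cell markers, 94.9 and 45.0 CPM against 4.59 to 24.1 CPM. The part of these in the pattern was not tested. Likeness to the mean log2 level of the 4 CD3 chains was measured as the SD over 6 libraries of a gene's log2 difference to it. The non-member genes closest to that mean were Gm6155 (SD 0.027, at only 0.243 to 0.364 CPM), Cfl1 (0.034), Rbm4b (0.039), H3f3b (0.045) and Mettl17 (0.050). Among the receptor genes this SD ran from 0.078 for Cd3e, 0.087 for Trac and 0.089 for Trbc2 to 0.31 for Cd247. The non-member genes just named lay closer to that mean than any of the 7, but they were picked as the closest of all genes tested. Whether the pattern was particular to the receptor genes was not tested.

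Genes that act on the receptor were described from 4 lists of 56 symbols, of which 49 were tested. By edgeR, 0 of 49 were called and 8 had an unadjusted p under 0.05, 6 with higher values in SKG and 2 with lower, where 3.07% and 2.38% of all genes did so. SKG lay wholly above BALB/c for 8 genes and wholly below for 3, against 6.77% and 7.12% of all genes. DESeq2 called 3 of them, Fcer1g, Runx3 and Tcf7. The study names Runx3 and Tcf7 from these same libraries, so they are not independent evidence of a direction.

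Of 15 genes of receptor assembly and turnover, 1 was higher and 2 were lower in SKG at an unadjusted p under 0.05. Of all genes tested, 3.07% were higher and 2.38% lower. The median log2 fold change of the 15 was 0.36. Laptm5, a lysosomal protein that promotes degradation of the ζ chain, measured 2897 ± 189 CPM (SD, n = 3) in BALB/c and 3769 ± 398 CPM (n = 3) in SKG (log2 fold change 0.38, edgeR adjusted p = 0.830). Sla, an adaptor that lowers receptor levels in thymocytes together with Cbl, measured 649 ± 47.4 CPM (n = 3) and 433 ± 112 CPM (n = 3; log2 fold change -0.58, edgeR adjusted p = 0.834). Neither gene had overlapping genotypes. Calr, a chaperone of glycoproteins in the endoplasmic reticulum, had a log2 fold change of -0.41 (edgeR adjusted p = 0.871), also without overlap. Sel1l, which takes part in degradation of unassembled chains, had a log2 fold change of 0.77 (edgeR adjusted p = 0.947).

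Of 13 listed symbols of other receptor and ITAM-bearing chains, 10 were in the table and 6 were tested, with a median log2 fold change of 0.44. Tcrg-C2, a γ chain constant region, gave 13, 1 and 40 reads in BALB/c but 93, 81 and 1089 in SKG (edgeR adjusted p = 0.871), with 1 library, SKG replicate 3, holding most of them. Tcrg-C4 gave 29, 2 and 207 reads in BALB/c but 339, 342 and 1346 in SKG (edgeR adjusted p = 0.952). The γ constant regions resemble each other, so the split of reads between them is uncertain. The δ constant region Trdc measured 15.4 ± 6.97 CPM (SD, n = 3) and 15.0 ± 2.19 CPM (n = 3). The list of 5 γδ T cell markers held Trdc, Tcrg-C1, Tcrg-C2, Tcrg-C4 and Sox13. Its sum was 12.7 to 29.7 CPM in BALB/c and 35.0 to 87.6 CPM in SKG, without overlap. Without Tcrg-C2 and Tcrg-C4 the sum was 21.5, 12.6 and 24.3 CPM in BALB/c and 24.7, 24.2 and 20.3 CPM in SKG, which overlapped. Fcer1g, an ITAM-bearing chain that can stand in for ζ, gave 517, 385 and 441 reads in BALB/c but 90, 52 and 175 in SKG (edgeR adjusted p = 0.952). Cd79a of the B cell receptor had 0 to 274 reads per library (edgeR adjusted p = 0.991).

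Of 15 kinases, coreceptors and adaptors, 0 had an unadjusted p under 0.05, against 5.45% of all genes, and the median log2 fold change was 0.027. Zap70, the mutated kinase, measured 448 ± 65.4 CPM (SD, n = 3) in BALB/c and 356 ± 45.9 CPM (n = 3) in SKG, and the genotypes overlapped (log2 fold change -0.33, edgeR adjusted p = 0.953). The mutation changes the protein, so the level of its mRNA does not check the labels. The kinase Fyn (log2 fold change 0.38) and the adaptors Nck2 (0.19) and Lat (-0.19) also overlapped between the genotypes.

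Of 13 transcription factors that bind enhancers of these loci, 4 had higher values in SKG at an unadjusted p under 0.05 and 0 had lower. Of all genes tested, 3.07% and 2.38% did so. The median log2 fold change of the 13 was 0.45. Tcf7, which encodes TCF-1, measured 239 ± 104 CPM (SD, n = 3) in BALB/c and 830 ± 84.9 CPM (n = 3) in SKG (log2 fold change 1.79, edgeR adjusted p = 0.617). Tcf3, which encodes the E proteins E12 and E47, measured 391 ± 10.3 CPM (n = 3) and 575 ± 76.3 CPM (n = 3; edgeR adjusted p = 0.686). Ets1 measured 1162 ± 269 CPM (n = 3) and 1774 ± 142 CPM (n = 3; edgeR adjusted p = 0.830). Runx3 gave 0, 0 and 5 reads in BALB/c but 60, 403 and 83 in SKG (edgeR adjusted p = 0.830). For none of these 4 did the genotypes overlap. With Ikzf1, SKG lay wholly above BALB/c for 5 of the 13, against 6.77% of all genes. Gata3 (log2 fold change -0.17) and Tcf12 (-0.30) had overlapping libraries.

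**Figure D5:**
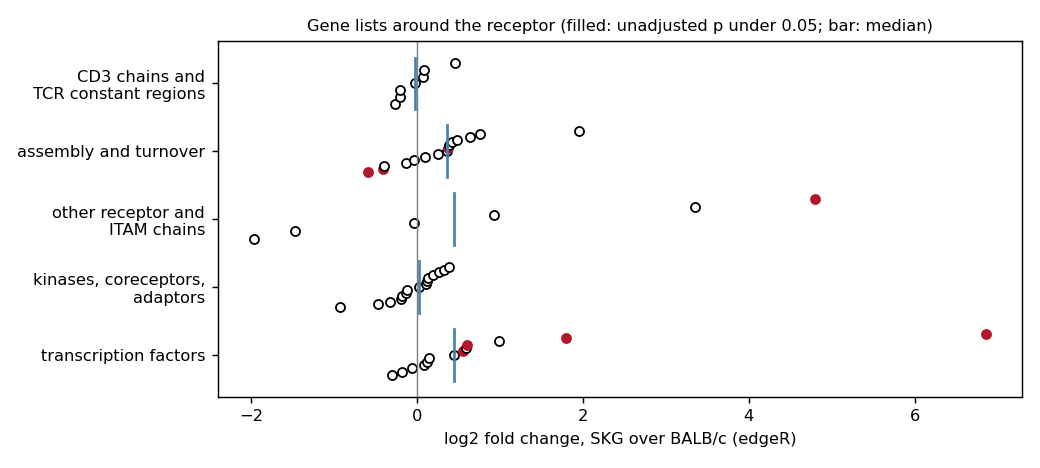
Log2 fold change of SKG over BALB/c from edgeR for the 7 receptor genes and the tested genes of 4 lists, with filled points at an unadjusted p under 0.05 and a bar at each median. The 7 receptor genes lie between -0.27 and 0.46 with 0 filled points, and 4 of 13 transcription factors are filled, all to the right of 0. Of all genes tested, 3.07% had such a p with higher values in SKG.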

How the data were processed

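RNA of stage 0 iNKT cells was sequenced as 3 BALB/c and 3 SKG libraries. The authors aligned the reads to GRCm38 and counted those overlapping exons of Ensembl release 85 ignoring strand, with a minimum mapping quality of 10; the deposited values are raw counts per gene, with no normalization or filter. The submitters' processing notes name HISAT2 2.1.0, featureCounts of Subread 1.4.4 and DESeq2 1.14.1. The labels and the study's methods name different amplification kits, so the number of amplification cycles is not given here. A second deposited table holds the authors' own comparison and was not used.

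The tests used edgeR 4.0.16 in R 4.3.3 (TMM, filterByExpr by genotype, quasi-likelihood F test without covariates), limma 3.58.1 and DESeq2 1.42.0. P-values of edgeR and limma-voom were adjusted over the 12312 genes tested, and those of DESeq2 over the genes its own filter left, 14342 without shrinkage and 13862 with it. A marker list is not reported here. A call needed an FDR below 0.1 and a 1.5-fold change. SEs are the absolute log2 fold change over the square root of F. Log2 CPM used a prior count of 2. The fit was also run on simulated data with planted changes, at a dispersion lower than that of these libraries, so it does not show power here. For single measures, scipy 1.17.1 gave exact two-sided permutation tests. P-values measure the spread between pools of mice. Exons and lengths came from a GENCODE annotation of GRCm38, and promoters from RefSeq. Reads had been counted on Ensembl release 85, so the exons used for lengths and overlaps may differ from those counted. The 7 genes and all lists were chosen with earlier results of these data known. Named list genes are the 2 lowest p in each direction per list and any with an unadjusted p under 0.05. Alternatives were other tests, normalizations, filters, gene lengths, replicate blocks and leaving out each library. Libraries with the same replicate number were not paired.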

Additional observations from a re-analysis of the deposited data

How the results depend on the processing

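No alternative called any of the 7 genes. Of all values recomputed under an alternative, 182 kept their direction and their side of the threshold. The direction reversed for 9 log2 fold changes of the 7 genes and for 8 differences in sums and ratios. The count of called list genes moved in 2 settings. The direction of small differences did not hold. Leaving out BALB/c replicate 1 gave a log2 fold change of 0.085 for Trac and 0.010 for Trbc1, a difference of 94.3 CPM in the CD3 chain sum and 320 CPM in the constant region sum, and log2 differences of -0.065 in Trac to Trbc and 0.024 in α segment reads to Trac. Leaving out SKG replicate 1 gave 0.055 for Trac, 181 CPM in the constant region sum, -0.016 in Trac to Trbc and 0.081 in α segments to Trac. Leaving out SKG replicate 2 gave -0.053 in Trac to Trbc, leaving out BALB/c replicate 3 gave -0.0037 for Cd3e, and Trbc2 became -0.018 without BALB/c replicate 2 and -0.091 without SKG replicate 3. For Trac, DESeq2 gave 0.0017 with or without shrinkage. DESeq2 called 3 list genes with and without shrinkage, where edgeR and limma-voom called 0; the cause was not tested.

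Over the 6 fits that each left out 1 library, the CD3 chain sum differed by -266 to 94.3 CPM and the constant region sum by -361 to 320 CPM. The log2 difference ran from -0.065 to 0.074 for Trac to Trbc and from -0.15 to 0.081 for α segments to Trac. The log2 fold change ran from -0.46 to -0.080 for Cd3d, -0.26 to -0.15 for Cd3g, 0.28 to 0.74 for Cd247, -0.0037 to 0.23 for Cd3e, -0.11 to 0.085 for Trac, -0.30 to 0.010 for Trbc1 and -0.091 to 0.25 for Trbc2. The Trbc1 share differed by -4.92 to -2.76 percentage points and the Cd247 ratio by 0.42 to 0.73, so neither changed direction.

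Same-numbered libraries were not paired, since correlations of their residuals were -0.092, -0.0096 and -0.15. With the replicate number as a block, 0 of 7 genes and 0 list genes were called, the Trbc1 share differed by -4.12 percentage points and the Cd247 ratio by 0.59 (exact sign-flip permutation p = 0.25 each, the smallest possible). With the library number of the labels as a block, Trac had a log2 fold change of 0.060 and 0 of 7 genes were called. With 3 libraries per genotype, differences within the interval given for each gene were not excluded. The lowest edgeR adjusted p over all genes tested was 0.212, so no gene could be called at the threshold used.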
